A study of Homo sapiens with 2 samples.

Results

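Transfer RNA (tRNA) genes of the nuclear genome were examined for peaks of the runt-domain transcription factor RUNX2 and of its partner in the study, MTA1, which belongs to the histone deacetylase complex NuRD. The genes were taken from the RefSeq gene table of GRCh38 as all entries on chromosomes 1 to 22 and X with the biotype tRNA or with a symbol of the TRA-AGC1-1 form, in which the letter after TR gives the amino acid, the triplet gives the anticodon, the first number gives the isodecoder (genes of one anticodon whose tRNA sequences differ) and the last number gives the copy. This gave 530 of 59098 annotated genes, 443 of biotype tRNA and 87 of biotype pseudogene. A gene was counted as having a peak when a peak shared at least 1 bp with the gene or with the 500 bp on either side of it.

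By the study's methods the peaks came from CUT&Tag, in which a transposase is brought by an antibody to its target and cuts sequencing adaptors into the DNA nearby. The sample labels instead describe adaptor ligation, and which is right is not known. There was 1 library with an antibody against RUNX2 and 1 with an antibody against MTA1, both from untreated cells of MDA-MB-231, a long-established human breast cancer line that lacks the hormone receptors and HER2. The study compared the sites of both proteins to ask where they meet on chromatin. Neither library was repeated and none without a specific antibody was analysed here, so no p-value is given, every difference between the lists is one between single libraries, and the 95% exact intervals cover counting error over genes only.

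tRNA genes are short and are transcribed by RNA polymerase III. Their promoter lies inside the gene, in the A box and the B box, which recruit the factor TFIIIC and then TFIIIB. Many are present in several copies and lie in clusters, and only some of the copies are active in a given cell type.

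The sequences of 14 of the 530 genes could be read, since those genes lie wholly inside the RefSeq (GRCh38.p14) promoter window of a neighbouring gene. Of these 14 genes, 6 had both peaks, 2 had a RUNX2 peak only, 1 had an MTA1 peak only and 5 had none. The genes printed here show that tRNA genes with and without peaks carry the same internal promoter element, and capitals mark its match, the B box core GTTCNANNC. The gene table gives no strand, so the strand was inferred from where the anticodon stands in the gene. Where both strands had the anticodon there, the B box core could decide. The first gene printed has the highest MTA1 score in its window among all tRNA genes (chr16:636736-636806, minus strand). TRR-ACG2-1 (chr3:45688999-45689071, minus strand) and TRI-TAT2-2 (chr6:27020346-27020439, plus strand), whose gene is longer than the others, also had both peaks. TRH-GTG1-9 (chr15:45201151-45201222, plus strand) had a RUNX2 peak only and TRH-GTG1-3 (chr1:148281365-148281436, plus strand) had none. TRN-GTT4-1 (chr1:16889677-16889750, plus strand) had an MTA1 peak only and TRN-GTT6-1 (chr1:143735920-143735993, minus strand) had none. TRP-TGG3-2 (chr14:20684016-20684087, plus strand) and TRP-TGG3-5 (chr16:3188094-3188165, plus strand) had none.
TRG-CCC2-2: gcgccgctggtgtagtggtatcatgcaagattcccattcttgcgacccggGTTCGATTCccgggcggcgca
TRR-ACG2-1: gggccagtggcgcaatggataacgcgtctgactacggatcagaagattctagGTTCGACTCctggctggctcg
TRI-TAT2-2: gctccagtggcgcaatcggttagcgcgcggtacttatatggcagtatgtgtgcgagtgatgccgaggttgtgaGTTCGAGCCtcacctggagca
TRH-GTG1-9 and TRH-GTG1-3: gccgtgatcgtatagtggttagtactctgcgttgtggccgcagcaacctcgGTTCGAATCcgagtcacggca
TRN-GTT4-1: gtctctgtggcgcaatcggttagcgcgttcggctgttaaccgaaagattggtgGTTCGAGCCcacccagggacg
TRN-GTT6-1: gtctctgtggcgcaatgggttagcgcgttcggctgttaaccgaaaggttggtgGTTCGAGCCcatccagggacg
TRP-TGG3-2 and TRP-TGG3-5: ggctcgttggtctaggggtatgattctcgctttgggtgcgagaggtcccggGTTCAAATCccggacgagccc

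The B box core was present on the inferred strand in all 14 of these genes, whether or not they had a peak. It was present on either strand in 7.48% of all 35116 RefSeq promoter windows. The RUNX motif core TGTGGT, also searched on both strands, was in 13.1% of all windows and in 0 of the 14 windows that hold these tRNA genes. That says only that these letters are not in those windows. The histidine genes TRH-GTG1-3 and TRH-GTG1-9 had the same 72 bases, and only TRH-GTG1-9 had a peak. That RUNX2 peak had a score of 5.76, below the median of its list (6.70). How reads that match both genes were placed is not given in the sources used here. The asparagine genes TRN-GTT4-1 and TRN-GTT6-1 differed at 3 of 74 positions, counted from 1 at the 5′ end of the gene (C17G, A47G and C65T, with the base of TRN-GTT4-1 first). The bases of the gene therefore did not separate the histidine pair. TRH-GTG1-9 lies 34 bp from an end of SHF, a protein-coding gene, and TRH-GTG1-3 lies 129083 bp from the nearest such end.

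Of the 530 genes, 173 (32.6%, 28.7% to 36.8%) had a RUNX2 peak, 185 (34.9%, 30.8% to 39.1%) had an MTA1 peak and 151 (28.5%) had both. Among the 6439 other annotated genes of at most 200 bp, the shares were 5.09% for RUNX2, 4.57% for MTA1 and 3.56% for both, and the intervals of the tRNA genes lay above them. A RUNX2 peak without an MTA1 peak was found at 22 tRNA genes, an MTA1 peak without a RUNX2 peak at 34, and neither at 323. Some genes share a peak, since their windows touch. Merging touching windows gave 447 loci, of which 138 (30.9%) held RUNX2 peaks, 146 (32.7%) held MTA1 peaks and 120 held both.

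Peaks were at genes annotated as tRNA rather than at their pseudogenes. Of the 443 genes of biotype tRNA, 171 (38.6%, 34.0% to 43.3%) had a RUNX2 peak, 184 (41.5%, 36.9% to 46.3%) had an MTA1 peak and 151 (34.1%) had both. Of the 87 pseudogenes, 2 (2.30%, 0.280% to 8.06%) had a RUNX2 peak, 1 (1.15%, 0.0291% to 6.24%) had an MTA1 peak and 0 had both. The 3 pseudogenes were TRQ-CTG11-1 (RUNX2 score 3.67), TRE-CTC15-1 (RUNX2 score 5.22) and TRK-TTT13-1 (MTA1 score 5.85). Each of these peaks had the narrowest width found in its list. The 20 nuclear copies of mitochondrial tRNA genes had no peak of either list, which allows a share of up to 16.8% by the exact interval. No peak was found either at the 20 members named in an older form (such as TRNAG-CCC), 14 on chromosome 1 and 6 on chromosome 6.

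Other short genes and the ends of protein-coding genes, starts and 3′ ends pooled, had lower shares per window than the genes of biotype tRNA. The 152 snRNA genes of at most 200 bp, which encode spliceosomal and related RNAs, were nearest with 30 (19.7%) for RUNX2 and 36 (23.7%) for MTA1. The 1911 miRNA genes had 8.84% and 7.69%, and the 1129 snoRNA genes had 3.54% and 3.37%. Short pseudogenes outside the tRNA set, 2986 of the other short genes, had 2.34% and 1.91%. Of the single ends of protein-coding genes 23.6% and 24.5% had a peak within 500 bp. Starts and 3′ ends were not counted apart, so the share at starts alone, and whether tRNA genes exceed it, is not known. Counted per protein-coding gene, with a peak at either end, the shares were 44.7% for RUNX2, 46.8% for MTA1 and 39.7% for both, but that count gives each gene a pair of windows and the tRNA genes have one.

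**Figure D1:**
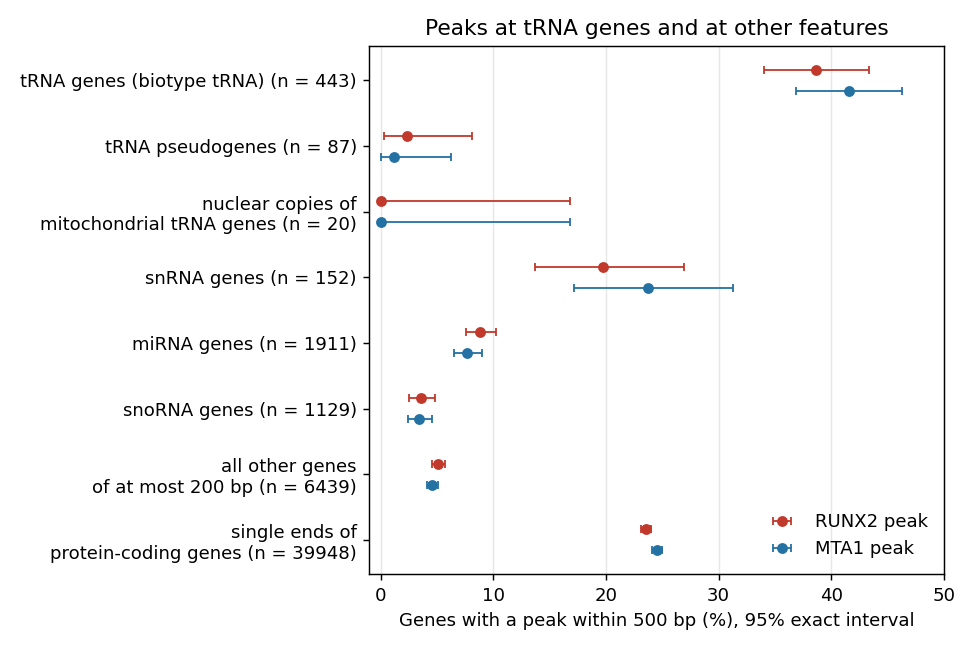
Share of features with a RUNX2 (red) or MTA1 (blue) peak within 500 bp, in percent, for tRNA genes and other classes of gene, with n beside each class and 95% exact intervals as bars. The 443 genes of biotype tRNA lie at 38.6% and 41.5%, and the 87 tRNA pseudogenes at 2.30% and 1.15%.

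As a control for position, the windows of the 530 genes were moved along their chromosomes. Over 20 moves of 1 to 10 Mb, a mean of 17.4 windows (9 to 29) met a RUNX2 peak and a mean of 12.75 (5 to 27) met an MTA1 peak. The counts at the genes were 9.94 and 14.5 times these means. Over 10 moves of 20 to 100 kb, which stay in the neighbourhood of the clusters, the means were 23.4 (16 to 30) and 23 (16 to 30), and the counts at the genes were 7.39 and 8.04 times as high. Every moved set had fewer windows with a peak than the genes themselves, in both lists.

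Most genes with a peak were overlapped by one, but the strongest peak was often centred beside the gene. Of the 173 genes with a RUNX2 peak, 122 (70.5%) were themselves overlapped by one, and of the 185 genes with an MTA1 peak 146 (78.9%) were. The strongest peak in the window overlapped the gene at 107 (61.8%) and 130 (70.3%). The centre of the strongest peak was a median of 131 bp (RUNX2) and 122 bp (MTA1) from the centre of the gene. That distance was at most 100 bp at 67 (38.7%) and 75 (40.5%) of these genes. At the centres of the genes of biotype tRNA, 20.8% lay under a RUNX2 peak and 28.2% under an MTA1 peak. These shares were down to 2.37% and 2.60% at 1 kb and to 0.903% and 1.13% at 3 kb. The centres of other short genes lay under a peak in 1.20% and 1.41%, and protein-coding gene ends (starts and 3′ ends pooled) in 13.1% and 15.8%. The RUNX2 peaks nearest to the 500 bp limit were 461 bp from TRF-GAA1-4 inside it and 541 bp from TRR-TCT2-1 outside it. For MTA1 they were 480 bp from TRA-AGC2-1 and 507 bp from TRS-CGA4-1.

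**Figure D2:**
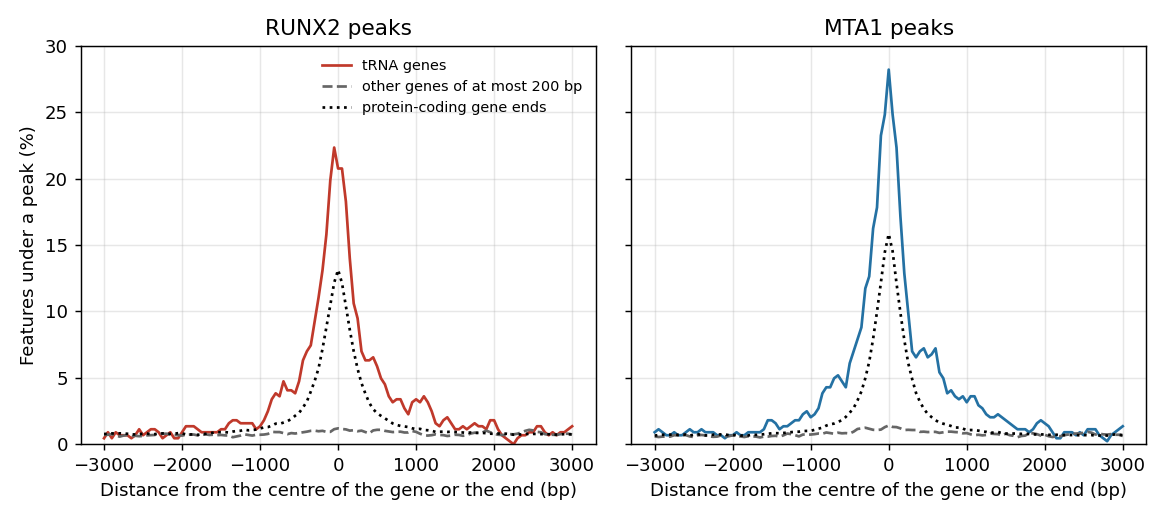
Share of features under a RUNX2 (left) or MTA1 (right) peak, in percent, against the distance in bp from the centre of the gene of biotype tRNA (solid line), from the centre of other genes of at most 200 bp (dashed) or from a protein-coding gene end (dotted). The solid lines are highest within 100 bp of the centre, at 22.3% and 28.2%.

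Each peak has a score, which was used to rank it within its own list. The median score was 6.70 for RUNX2 and 7.58 for MTA1. The 173 RUNX2 peaks at tRNA genes were 0.280% of the list and had a median score of 9.08, higher than 65.2% of RUNX2 peaks. The 186 MTA1 peaks at tRNA genes were 0.436% of the list and had a median score of 9.05, higher than 59.4% of MTA1 peaks. The median peak at a tRNA gene was thus above the middle of its list. So was that at other genes of at most 200 bp (63.0% for RUNX2, 68.1% for MTA1) and at protein-coding gene ends (66.3% and 70.1%). Of the RUNX2 peaks at tRNA genes 8.67% and of the MTA1 peaks there 12.9% were in the highest 10% of their list, against 14.2% and 22.3% of the peaks at protein-coding gene ends. Peaks at tRNA genes were wide compared with their lists: peaks of the narrowest width made up 14.5% of the RUNX2 and 14.0% of the MTA1 peaks at tRNA genes, and 31.7% and 26.0% of all peaks. At protein-coding gene ends these shares were 13.4% and 11.1%.

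Where a gene had both peaks, they were usually the same site. At 137 of the 151 genes (90.7%) the strongest RUNX2 peak overlapped the strongest MTA1 peak. Of all RUNX2 peaks at tRNA genes 79.8% overlapped an MTA1 peak, close to the 79.5% at protein-coding gene ends and above the 45.4% of the whole list. In the other direction, 74.7% of MTA1 peaks at tRNA genes overlapped a RUNX2 peak, 77.8% at protein-coding gene ends and 65.5% in the whole list. Over the 130 distinct pairs at genes with both, the scores had a Spearman rho of 0.558, a description across sites that share their libraries. The MTA1 peak ranked higher in its list than the RUNX2 peak in 80 pairs and lower in 50.

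Genes with a peak of a single protein had lower scores. At genes with both peaks the strongest RUNX2 peaks had a median score of 10.9 (higher than 71.7% of the list), and at genes with a RUNX2 peak only the median was 5.22 (29.3%). For MTA1 the medians were 12.2 (72.6%) with both and 5.80 (30.3%) with MTA1 only. Of the 21 distinct RUNX2 peaks at RUNX2-only genes, 11 had the narrowest width, as did 12 of the 29 MTA1 peaks at MTA1-only genes. Not all were low: the highest scores at RUNX2-only and MTA1-only genes were 12.4 and 16.9. The RUNX2 peak of 12.4 is shared with neighbouring genes that had both. Whether a peak missing from one list is an absent or a weak signal was not tested.

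**Figure D3:**
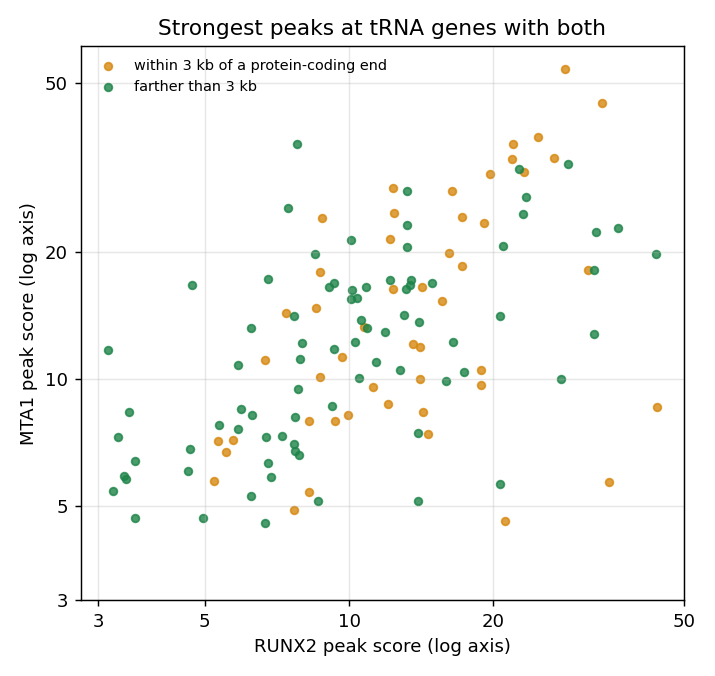
Scores of the strongest RUNX2 peak (x axis, log) and the strongest MTA1 peak (y axis, log) at tRNA genes with both, 1 point per distinct pair of peaks, in orange where the gene lies within 3 kb of a protein-coding gene end and in green where it lies farther. Over the 130 pairs the Spearman rho was 0.558.

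The RUNX2 peak with the highest score at a tRNA gene was at TRN-GTT1-1, an asparagine gene 1444 bp from FCGR3A, which encodes an Fc receptor of immune cells (chromosome 1, 161540106 to 161540495, score 43.8). The MTA1 peak there, at 161540165 to 161540471, scored 8.61, above 57.1% of its list. Next came a peak shared by the proline gene TRP-AGG2-6 and the threonine gene TRT-TGT3-1 (chromosome 14, 20613347 to 20613920), with a RUNX2 score of 43.8 and an MTA1 score of 19.8. At the leucine gene TRL-CAA6-1 the scores were 36.5 for RUNX2 and 22.7 for MTA1, and no RUNX2 peak overlapped the gene itself. TRF-GAA1-6 (phenylalanine) and TRN-GTT2-6 (asparagine) share a peak 472 bp from NDUFS7, which encodes a subunit of respiratory complex I, with 34.9 for RUNX2 and only 5.72 for MTA1. The first and the fourth of these sites thus combined a very high RUNX2 rank with a middling or low MTA1 rank. The other 6 of the 10 highest RUNX2 sites were at TRR-CCT4-1 (33.8), TRG-CCC4-1 (32.8), TRP-CGG2-1 (32.5), the pair TRL-CAG2-1 and TRL-CAG2-2 (32.4), TRR-TCG1-1 (31.5) and TRQ-TTG1-1 (28.7). All 10 had an MTA1 peak too.

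The highest MTA1 score at a tRNA gene was 54.2, higher than 99.6% of MTA1 peaks, at the glycine gene TRG-CCC2-2 printed above, 430 bp from METTL26 (chromosome 16, 636192 to 636686). The RUNX2 peak there, at 636363 to 636658, had a score of 28.2. Both peaks lie beside the gene, which starts at 636736, and the MTA1 peak that overlaps the gene itself scored 5.72. At the arginine gene TRR-CCT4-1, 228 bp from FMC1, the MTA1 peak spanned 139340231 to 139340725 of chromosome 7 and scored 44.9, and the RUNX2 peak scored 33.8. Both sites were above 93.1% of the peaks of either list. The histidine gene TRH-GTG1-1 (chromosome 1, 146038028 to 146038373) was uneven in the opposite way to TRN-GTT1-1, with an MTA1 score of 35.9 and a RUNX2 score of 7.80. The other 7 were at TRT-AGT1-3 (37.2), TRG-TCC1-1 with TRV-CAC3-1 (35.9), TRR-TCG3-1 (33.4), TRR-ACG1-3 (33.1), TRQ-TTG1-1 (32.3), the initiator TRX-CAT1-8 (31.4) and TRA-AGC8-1 with TRY-GTA2-1 (30.9). Only TRR-CCT4-1 and TRQ-TTG1-1 were in both sets of 10. A protein-coding gene end lay within 3 kb of 7 of the 10 MTA1 sites and of 4 of the 10 RUNX2 sites. Among all genes of biotype tRNA with a peak, that held for 66 of 184 (MTA1) and 66 of 171 (RUNX2).

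Among genes with a RUNX2 peak alone, the highest score was 12.4, at TRA-AGC8-2. That peak lies 441 bp from TRA-AGC8-2 and is shared with its neighbours TRY-GTA5-1 and TRY-GTA5-2, which had an MTA1 peak too. TRA-AGC8-2 was followed by TRA-TGC3-2 (10.5), TRI-AAT8-1 (9.15), TRL-CAA1-2 with TRQ-CTG1-3 (8.03) and TRG-CCC6-1 (6.87). The strongest with an MTA1 peak alone were TRL-CAA1-1 (16.9), TRN-GTT2-1 (14.4), TRW-CCA4-1 (11.1), TRV-AAC1-4 (10.6) and TRP-AGG2-4 with TRP-TGG2-1 (9.74). The leucine isodecoder CAA1 thus held the fourth of the RUNX2-only sites and the first of the MTA1-only sites.

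All amino acid classes took part. Counting initiator methionine and selenocysteine apart, there were 22 classes among the genes of biotype tRNA, and each had at least 1 gene with a RUNX2 peak and 1 with an MTA1 peak. Arginine was at the upper end, with 15 of 26 genes for RUNX2 (57.7%, 36.9% to 76.6%) and 17 of 26 for MTA1 (65.4%, 44.3% to 82.8%). Cysteine was at the lower end, with 5 of 29 genes in each list (17.2%, 5.85% to 35.8%). Asparagine had 5 and 6 of 26, and elongator methionine had 2 of 11 in each list. The interval of a class held the share of all genes of biotype tRNA in 21 of 22 classes for RUNX2 and in 20 of 22 for MTA1, so most classes could not be told apart from the whole at these numbers. Of 49 anticodons, 48 had a gene with a peak of either list and 47 had one in each list. The exception was isoleucine GAT, with 0 of 3 genes.

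**Figure D4:**
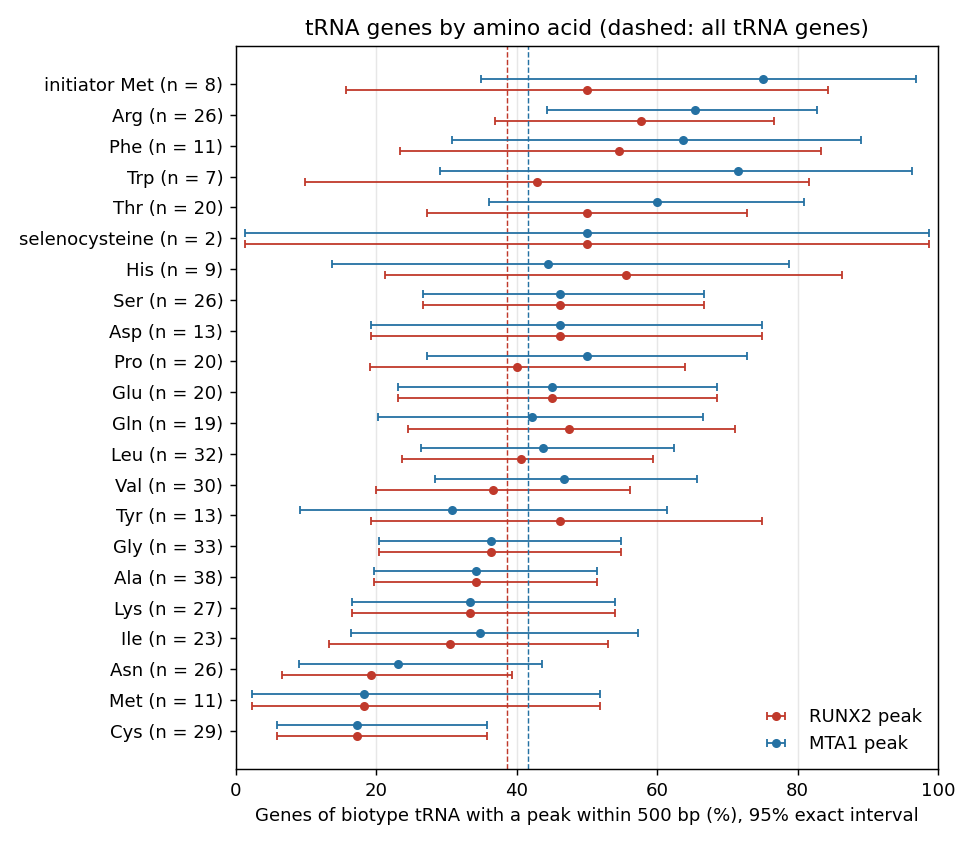
Share of genes of biotype tRNA with a RUNX2 (red) or MTA1 (blue) peak within 500 bp, in percent with 95% exact intervals, for 22 amino acid classes with n beside each, the dashed lines marking the shares of all 443 genes. Cysteine lies lowest at 17.2% in both lists, and arginine lies at 57.7% and 65.4%.

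The initiator methionine gene, whose tRNA starts every protein, is present in 8 copies of one isodecoder, and 4 had a RUNX2 peak and 6 an MTA1 peak. TRX-CAT1-1, 256 bp from ILF2, had scores of 19.7 (RUNX2) and 30.5 (MTA1), TRX-CAT1-8 had 22.6 and 31.4, TRX-CAT1-6 had 13.2 and 27.8, and TRX-CAT1-3 had 4.71 and 16.7. Only an MTA1 peak was at TRX-CAT1-2 (5.09) and TRX-CAT1-7 (6.74), and TRX-CAT1-4 and TRX-CAT1-5 had none. Peaks were not confined to copies beside protein-coding genes, since TRX-CAT1-6 lies 119715 bp from the nearest end. Selenocysteine has 2 genes. TRU-TCA1-1, 3421 bp from the AP-1 gene FOSB, had both peaks (RUNX2 7.98, MTA1 12.2), and TRU-TCA2-1 had none.

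Genes numbered as the first isodecoder of their anticodon had peaks most often. These were 62 of 116 genes (53.4%, 44.0% to 62.8%) in each list. For isodecoders 2 to 5 the counts were 96 (41.6%) and 112 (48.5%) of 231, and for isodecoders 6 and above 13 (17.1%, 9.43% to 27.5%) and 10 (13.2%, 6.49% to 22.9%) of 76. The intervals of the last group lay below those of the others, which overlapped each other. In this naming a low isodecoder number goes with a closer match to the model of a functional tRNA. The order held among genes over 3 kb from any protein-coding gene end, except that MTA1 was at 40.0% for the first isodecoder and 42.5% for isodecoders 2 to 5, with 10.1% for the rest. For RUNX2 the shares there were 40.0%, 34.3% and 13.0%.

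Copies of one isodecoder, which have the same tRNA sequence, often differed. Among 57 isodecoders with more than 1 gene (222 genes), all copies had a RUNX2 peak in 7, none in 13 and some in 37. For MTA1 these numbers were 8, 14 and 35. Phenylalanine GAA1 had a RUNX2 peak at 5 of 6 copies and an MTA1 peak at the same number. Glutamine CTG1 had 5 and 3 of 5, aspartate GTC2 5 and 5 of 11, and glycine GCC1 had 0 of 5 in each list. How reads that match several copies were placed is not given in the sources used here. Genes of a single-copy isodecoder had peaks in 35.8% (RUNX2, 29.2% to 42.9%) and 38.8% (MTA1, 32.0% to 45.9%) of 201. Those with 4 or more copies had them in 45.5% (37.2% to 54.0%) and 48.3% (39.9% to 56.7%) of 145. The intervals overlap, and isodecoder number was not held equal between these groups.

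Nearness to a protein-coding gene end moved with the presence of peaks. Of 89 genes of biotype tRNA within 3 kb of such an end, 66 (74.2%, 63.8% to 82.9%) had a peak in each list. From 3 to 20 kb the counts were 65 (46.1%) and 70 (49.6%) of 141, and over 20 kb they were 40 (18.8%, 13.8% to 24.7%) and 48 (22.5%, 17.1% to 28.7%) of 213. Other genes of at most 200 bp fell in the same order at a lower level, with 14.6% and 15.2% within 3 kb, 4.95% and 4.16% from 3 to 20 kb, and 2.62% and 1.96% over 20 kb. At each distance the intervals of tRNA genes and other short genes did not overlap. The sets are unlike, since pseudogenes were left out of the tRNA genes here but are 2986 of the 6439 other short genes. Nearness did not always bring a peak: TRP-TGG3-5, 38 bp from the olfactory receptor gene OR1F1, and TRP-TGG3-2, 89 bp from ANG, which encodes angiogenin, had none.

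Chaining genes at most 100 kb apart gave 186 clusters, 17 of them with 5 or more genes and 305 genes in all. Genes that stood alone had peaks more often than clustered ones. Among genes of biotype tRNA, single genes had 49 (60.5%, 49% to 71.2%) and 46 (56.8%, 45.3% to 67.8%) of 81, groups of 2 to 4 had 43.8% and 47.5% of 80, and clusters of 5 or more had 87 (30.9%, 25.5% to 36.6%) and 100 (35.5%, 29.9% to 41.4%) of 282. Distance to protein-coding genes moved with this too. Over 3 kb from their ends the shares were 49% and 42.9% for single genes, 23.2% and 32.1% for groups of 2 to 4, and 27.3% and 31.7% for clusters, so for RUNX2 the middle and large groups were no longer in order, while for MTA1 they were nearly level.

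Chromosomes 6 and 1 hold most of the clustered genes. On chromosome 6, 44 (28.4%) and 58 (37.4%) of 155 genes of biotype tRNA had a RUNX2 and an MTA1 peak, and on chromosome 1 it was 25 (25.5%) of 98 in each list. On the other chromosomes 102 (53.7%) and 101 (53.2%) of 190 did. The median distance to a protein-coding gene end was 36956 bp on chromosome 6, 25319.5 bp on chromosome 1 and 7333.5 bp elsewhere. The part of this distance in the lower shares was not tested.

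The largest cluster, 47 genes over 515 kb of chromosome 6 from TRT-TGT1-1 to TRL-AAG3-1 near TRIM27, had 17 genes with a RUNX2 peak, 19 with an MTA1 peak and 13 with both. The 4 other large clusters of that chromosome, near the histone and butyrophilin genes, had 10 and 12 of 33 (near ZNF184), 5 and 8 of 32 (near ZNF322), 4 and 9 of 23 (near PRSS16) and 4 and 6 of 13 (near H4C8). MTA1 peaks were more numerous than RUNX2 peaks in all 5 of these. A further cluster of 6 genes near PRIM2 had none.

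In a cluster on chromosome 17 the peaks of both proteins fell at the same genes. It has 18 genes of 11 amino acids over 108 kb between TRK-TTT3-5 and TRI-AAT4-1. Of these, 12 had both peaks and the other 6 had neither within 500 bp. An MTA1 peak lay 515 bp from TRK-TTT3-5, just past that limit. These genes lie beside ALOXE3, HES7, PER1, BORCS6 and CTC1. The scores were highest at TRT-AGT1-1 and TRI-AAT5-5, which share a RUNX2 peak at 8187692 to 8188041 (19.2) and an MTA1 peak at 8187663 to 8188017 (23.3). Neighbours shared peaks there, so that only 4 of its 6 loci had them. TRT-AGT1-2, TRS-AGA2-6 and TRI-AAT4-1, at the CTC1 end, had none.

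The large cluster of chromosome 1, 34 genes over 212 kb beside the Fc receptor genes and HSPA6, had 9 genes with peaks, each with both. They lay at its ends. Between them stood an unbroken run of 21 genes, from TRL-CAG1-1 to TRL-CAG1-5, with 0 RUNX2 and 0 MTA1 peaks. The run was chosen after its values were seen. It is a tandem repeat of 5 isodecoders (glycine GCC1, glutamate CTC1, glycine TCC2, aspartate GTC2 and leucine CAG1) over 29.7 kb, in which successive TRE-CTC1 genes start 7380 to 7411 bp apart. Outside the run, 12 of 15 genes of the same isodecoders had a RUNX2 peak and 12 an MTA1 peak. At the far end, TRL-CAG1-6 and TRG-TCC2-6 had a RUNX2 peak of 20.7, with MTA1 scores of 5.63 and 14.1. Whether reads of the repeat were placed at all was not tested.

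The other clusters of 5 or more genes described here ranged from mostly occupied to empty. Near OSBP on chromosome 11, 4 and 6 of 8 genes had a RUNX2 and an MTA1 peak. On chromosome 5 near TRIM7 the counts were 7 and 8 of 18, and on chromosome 16 near OR1F1 4 and 6 of 17. The cluster near OR6S1 on chromosome 14 leaned to RUNX2, with 6 and 3 of 15. Those with few or no peaks were 2 clusters of chromosome 7 that hold mostly cysteine genes, with 1 RUNX2 peak among 13 genes near KRABD3 and none among 7 near ZNF783, and 2 on chromosome 1, with 1 RUNX2 peak among 9 genes near H3-7 and none among 7 near NBPF11.

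**Figure D5:**
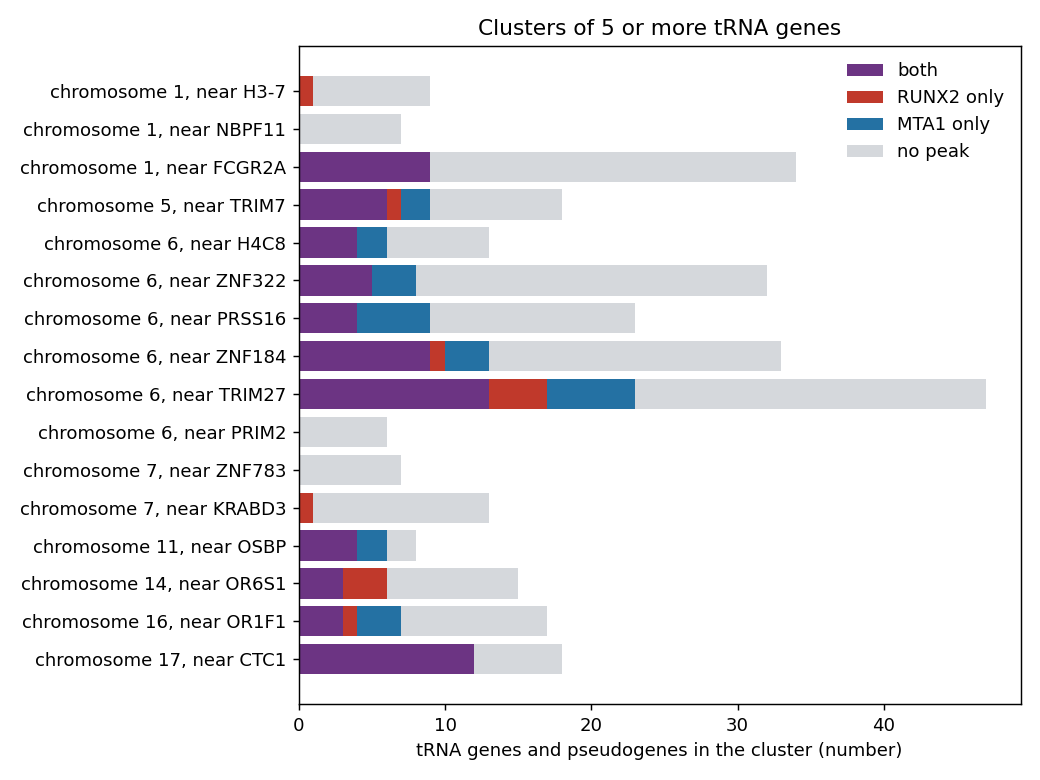
Number of tRNA genes and pseudogenes in the clusters of 5 or more genes, 1 of them not shown (x axis), divided into genes with both peaks (purple), a RUNX2 peak only (red), an MTA1 peak only (blue) and none (grey), each cluster being named by its chromosome and the protein-coding gene nearest to most of its members. The chromosome 17 cluster has 12 of 18 genes with both peaks, and the chromosome 1 cluster near FCGR2A has 9 of 34.

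Other genes of RNA polymerase III were compared as the rest of the same system. Of 39 on a list of such genes, 14 (35.9%) were within 500 bp of a RUNX2 peak, 16 (41.0%) of an MTA1 peak and 14 of both. The shares were 5.09% and 4.57% among all other genes of at most 200 bp, a set that holds part of this list. All 17 genes of 5S ribosomal RNA on the list had none, and whether reads of these copies were placed was not tested. The scores were among the highest of both lists at RN7SK, which holds the elongation factor P-TEFb inactive (RUNX2 36.2, MTA1 36.9), at RMRP and RPPH1, the RNAs of RNases MRP and P (34.6 and 44.8, 25.2 and 69.5), and at RN7SL1 and RN7SL2 of the signal recognition particle (41.4 and 31.9, 35.0 and 54.3). The same was true of the U6 gene RNU6-2 (37.9 and 42.5) and of RNU6ATAC, the gene of U6atac spliceosomal RNA (30.7 and 35.7). RPPH1 and RN7SL2 exceeded every tRNA gene in MTA1 score. The vault RNA genes VTRNA1-1, VTRNA1-2, VTRNA1-3 and VTRNA2-1 had both peaks, with RUNX2 scores from 16.8 to 20.3 and MTA1 scores from 13.9 to 25.6. RNU6-1, RNU6-9 and RNY1 had both at lower scores, 6.02 and 7.93, 8.62 and 7.02, and 7.58 and 8.73. RNY5 (4.85) and RNU6-8 (9.92) had an MTA1 peak only. RNY3, RNY4, RNU6-7, RN7SL3, BCYRN1 and VTRNA3-1P had none.

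The protein-coding genes of the polymerase III machinery had peaks at their ends more often than protein-coding genes at large (44.7% and 46.8%). Of 31 such genes, 24 (77.4%) had a RUNX2 peak and 28 (90.3%) an MTA1 peak. POLR3A and CRCP, which encode subunits of the polymerase, and BRF1, of TFIIIB, had neither. MAF1, the repressor of the polymerase, had scores of 28.3 (RUNX2) and 43.5 (MTA1), GTF3C1 of TFIIIC had 23.4 and 44.0, and SNAPC3, of the complex that starts U6 transcription, had 39.2 and 12.2. POLR3G, GTF3C3, GTF3C6 and GTF3A had an MTA1 peak only. Of 20 genes of cytosolic aminoacyl-tRNA synthetases, which load tRNAs with their amino acids, 19 had a RUNX2 peak and 20 an MTA1 peak. QARS1, which charges glutamine tRNA, lacked the RUNX2 peak, and its MTA1 peak was weak (3.98). No share was computed for other widely expressed protein-coding genes, so whether the genes of these lists differ from those was not tested.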

How the data were processed

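Per the labels, untreated MDA-MB-231 cells gave 1 library with each antibody (RUNX2, MTA1). The study's methods name CUT&Tag. The labels conflict with this: they describe adaptor ligation and name another antibody supplier than the methods do. The submitters' processing notes name CASAVA 1.4, Bowtie 0.12.8, MACS, MACS2 and the build hg19. The positions are not those of hg19: 140 RUNX2 and 122 MTA1 peaks lie past its end of chromosome 17, so the peaks were used with GRCh38 genes. For each library the authors deposited a peak list (61717 RUNX2 and 42698 MTA1 peaks) with a score for each peak, whose scale is not given in the sources used here. It was used only to rank peaks within a list. Depth is unknown, and a missing peak can be a weak signal.

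tRNA genes were taken from the RefSeq table, which gives no strand for them, and overlaps (at least 1 bp, window of 500 bp), nearest protein-coding ends, clusters (100 kb), 20 moves of 1 to 10 Mb and 10 of 20 to 100 kb, and exact (Clopper-Pearson) 95% intervals were computed in Python 3.11.15 with scipy 1.17.1. Comparators were other genes of at most 200 bp and protein-coding ends. No p-value was computed. Overlap counting was first tested on simulated peaks. The gene set, gene lists and settings were chosen with earlier results of these data known. Named genes are the 10 highest RUNX2 and MTA1 sites (1 per peak), the 5 highest with 1 protein only, selenocysteine and initiator methionine genes, clusters of 5 or more genes, genes nearest the window limit, and polymerase III genes with peaks. The values of 1 cluster are not reported here.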

Additional observations from a re-analysis of the deposited data

Results flagged for a closer look

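The mitochondrial genome was outside the comparisons, and its tRNA genes had peaks. Of the 22 mitochondrial tRNA genes, 19 (86.4%) had a RUNX2 peak and 16 (72.7%) an MTA1 peak within 500 bp, and 6 in each list were overlapped by one. These genes stand close together, so that neighbours can share a peak. The mitochondrial genome held 17 RUNX2 peaks (scores 5.32 to 42.0, median 8.59) and 15 MTA1 peaks (6.19 to 47.4, median 11.2). No share over other mitochondrial positions was computed, so whether the tRNA genes differ from the rest of that genome was not tested. The peaks were picked out as signal in data outside the main measurement, with no control library to set them against. The 20 nuclear copies of mitochondrial tRNA genes had 0 peaks in each list.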

How the results depend on the processing

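No paired analysis was possible because each antibody has 1 library and no result comes from a test. Restricting to biotype tRNA was chosen after seeing the data. tRNA genes exceeded moved windows in every alternative run. Counts were within 1.5-fold of the reported ones for every other setting of window, score, width and gene set, and left that range for 2. The 10000 highest-scoring peaks of each list gave 38 genes for RUNX2, 75 for MTA1 and 27 for both, since fewer peaks were used. Genes over 3 kb from a protein-coding end (438) gave 107, 119 and 88. The ratio to moved windows depended on the window by construction: for RUNX2 and MTA1 it was 32.5 and 44.9 with no window, 21.7 and 28.9 with 100 bp, 6.53 and 9.54 with 1 kb, and 3.07 and 4.57 with 3 kb. It was 14.0 and 17.5 when only peaks of at least the median score were kept, 12.1 and 16.7 with peaks wider than the narrowest, 7.09 and 10.7 over 3 kb from protein-coding ends, 7.39 and 8.04 with moves of 20 to 100 kb, and 11.4 and 16.3 with biotype tRNA only. It was 21.1 for MTA1 with the 10000 highest peaks and 12.3 with loci. Why these moved was not tested beyond what the settings fix. Clusters of 5 or more genes numbered 20 when chained at 20 kb and 15 at 1000 kb, and the largest grew from 28 to 151 genes. Of 30 scores of named sites, 5 were lost with no window and that of TRG-CCC2-2 went from 54.2 to 5.72, 5 were lost with 100 bp, 2 by peak centre and 8 with the 10000 highest peaks. The unknown read depth and single libraries limit all absences.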
